A study of Homo sapiens with 6 samples.

Results

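The genes described here encode the 4 classical families of axon guidance cues and their receptors: semaphorins with plexins and neuropilins, ephrins with Eph receptors, Slits with Robos, and netrins with DCC, neogenin and the UNC5 proteins. They were selected by a rule on the gene symbol among the protein-coding genes on chromosomes 1 to 22 and X, and number 70 of 19970 genes. Of these, 35 encode ligands and 35 encode receptors. The study mapped CTCF, a DNA-binding protein, and acetylation of lysine 27 on histone H3 (H3K27ac) by chromatin immunoprecipitation and sequencing (ChIP-seq) in neurons differentiated from neural progenitor cells of KOLF2.1J, a human induced pluripotent stem cell line. The 6 libraries comprised 2 with a CTCF antibody, 2 with an H3K27ac antibody and 2 inputs with no antibody. All 3 groups came from the same line and the same differentiation protocol, with no other genotype, treatment or time point. Its wider design nominated regulatory elements of MAPT, the gene for the protein tau.

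A growing axon reads guidance cues through receptors on its growth cone, and the sign of the response, attraction or repulsion, depends on the receptor complex. Class 3 semaphorins are secreted and signal through neuropilins, which bind the ligand, and plexins, which carry the signal into the cell, whereas most membrane semaphorins bind plexins directly. Ephrins are bound to the cell surface and signal to Eph receptor tyrosine kinases on the neighbouring cell, Slits repel axons through Robo receptors, and netrins attract through DCC and repel through UNC5 receptors. H3K27ac marks active promoters and enhancers, and CTCF binds a long DNA motif and anchors chromatin loops.

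The promoters of 6 guidance genes are shown, chosen after their values were seen from the 10 that hold letters of the CTCF motif core. In 5 of the 6 the summit of a CTCF peak lies within the promoter window. NRP2, PLXND1, SEMA4A and SLIT1, not shown, also hold such letters but have no CTCF summit in the window. The placing of summits in the promoters shown is thus partly a result of this choice. Each line gives the 250 bases before the gene's start, on the gene's own strand, from RefSeq (GRCh38.p14). Capitals mark a match, on either strand, to a core written as CC, 3 bases of any kind, AG, 2 bases of any kind and GGC. A stricter form of this core asks for A directly after the CC, so every match to the stricter form is also a match to the looser. PLXNA1, PLXNA2 and PLXNB3 encode plexins, SEMA3B a secreted semaphorin, SEMA4G a membrane semaphorin and DCC the attractive netrin receptor.
PLXNB3, chrX:153763999-153764248, + strand: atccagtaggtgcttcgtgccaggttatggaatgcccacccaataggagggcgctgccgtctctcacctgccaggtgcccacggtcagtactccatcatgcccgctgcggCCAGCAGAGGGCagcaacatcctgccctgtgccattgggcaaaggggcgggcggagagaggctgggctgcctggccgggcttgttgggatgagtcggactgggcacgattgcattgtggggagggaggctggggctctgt
SEMA4G, chr10:100969254-100969503, + strand: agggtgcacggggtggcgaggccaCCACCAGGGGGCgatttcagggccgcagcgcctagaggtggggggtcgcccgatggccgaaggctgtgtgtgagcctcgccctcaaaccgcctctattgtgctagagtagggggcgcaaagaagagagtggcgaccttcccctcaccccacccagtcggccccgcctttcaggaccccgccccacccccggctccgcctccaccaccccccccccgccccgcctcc
DCC, chr18:52339947-52340196, + strand: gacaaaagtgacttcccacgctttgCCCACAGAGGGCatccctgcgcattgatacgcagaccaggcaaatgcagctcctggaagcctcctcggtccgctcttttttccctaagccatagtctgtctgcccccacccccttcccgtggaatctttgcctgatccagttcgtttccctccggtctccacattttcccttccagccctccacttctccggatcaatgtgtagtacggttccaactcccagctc
SEMA3B, chr3:50272869-50273118, + strand: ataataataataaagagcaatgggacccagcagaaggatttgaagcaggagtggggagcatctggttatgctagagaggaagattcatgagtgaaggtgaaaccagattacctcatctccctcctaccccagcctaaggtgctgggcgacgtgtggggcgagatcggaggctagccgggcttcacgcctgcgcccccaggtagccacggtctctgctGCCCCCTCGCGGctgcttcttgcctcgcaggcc
PLXNA1, chr3:126982865-126983114, + strand: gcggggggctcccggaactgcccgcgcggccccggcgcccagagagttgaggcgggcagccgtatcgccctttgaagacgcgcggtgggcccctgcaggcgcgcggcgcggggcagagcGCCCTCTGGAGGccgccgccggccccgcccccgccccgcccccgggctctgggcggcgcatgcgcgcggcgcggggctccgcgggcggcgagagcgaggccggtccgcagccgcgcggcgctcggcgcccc
PLXNA2, chr1:208244385-208244634, − strand: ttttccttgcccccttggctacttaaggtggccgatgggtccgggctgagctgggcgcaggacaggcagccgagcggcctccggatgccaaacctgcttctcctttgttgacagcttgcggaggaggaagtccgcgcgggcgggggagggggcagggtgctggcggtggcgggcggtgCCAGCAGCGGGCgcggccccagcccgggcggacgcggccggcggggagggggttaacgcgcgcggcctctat
The letters at PLXNB3, SEMA4G and PLXNA2 are matches to the stricter core, and those at DCC, SEMA3B and PLXNA1 only to the looser core. At SEMA3B and PLXNA1 the match lies on the strand opposite to the gene.

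In PLXNB3, 4.5 bases separated the centre of the match from the summit of a CTCF peak with a signal value of 264. The same distance, 4.5 bases, was found in SEMA3B, whose peak had a value of 363. It was 0.5 bases in SEMA4G, with a value of 176. In these genes the peak summit thus sat on the matched letters. The distance was 6.5 bases in DCC (signal value 240). In PLXNA1 it was 47.5 bases from a summit with a value of 85.4, and the same interval was listed again with a summit at -0.451 kb, before the start, and a value of 237. No CTCF peak overlapped the promoter window of PLXNA2, although a CTCF peak with a value of 200.05 lay within 1 kb of its start.

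Promoter windows of 300 bases, from 250 before to 50 after the start, were given for 60 of the 70 genes and for 15811 protein-coding genes in all. The stricter letters occurred in 3 of the 60 windows (5.0%) and in 2.69% of all windows. The looser letters occurred in 10 (16.7%) and in 12.9% of all. A CTCF peak overlapped 19 of the 60 windows (31.7%) and 21.5% of all windows. Among those 19 windows, 7 (36.8%) held the looser letters, against 23.2% over all genes whose window had a CTCF peak. Among the 41 guidance windows with no CTCF peak, 3 (7.32%) held them, against 10.1% over all genes. Where the summit of a CTCF peak lay in the window and the looser letters were present, 4 of 5 guidance genes and 67.6% of 602 genes in all had a match centred within 25 bases of a summit. A match is a description of letters and not evidence of binding.

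The deposited data are a single peak list for each antibody, and each list covers both of its replicates. No value per library was analysed here, so the values below have no replicate error and no test was made. The H3K27ac list held 78639 peaks on these chromosomes, each with a value read here as the fold enrichment at its summit, and the CTCF list held 43644 peaks, each with a signal value whose scale is not given in the sources used here. The values of the lists are never compared with each other. H3K27ac peaks were present at all 10 neuron markers examined, among them MAP2, TUBB3 and DCX, and at all 8 neural progenitor markers, among them SOX2, NES and VIM. They were also present at 5 of 8 astrocyte and oligodendrocyte genes (62.5%), highest 14.3-fold in SLC1A3. Peaks were found at 6 of 8 mesenchymal and endothelial genes (75%), highest 10.1-fold in PDGFRB, and at 2 of 5 pluripotency genes (40%), highest 7.63-fold in DPPA4. Of 10 liver, blood and muscle genes 4 held a peak (40%), highest 25.97-fold in PTPRC. Over all protein-coding genes the share with an H3K27ac peak was 70.8%, and under 50 kb it was 62.8%. The presence of a peak alone therefore does not mark a cell type. AQP4, MOG, OLIG2, CDH5, TIE1, POU5F1 and NANOG were among the markers with none. The strongest peaks of the neuron markers ran from 5.54-fold in SYN1 and 5.96-fold in RBFOX3 to 47.0-fold in GAP43. The progenitor markers had a higher median of the strongest peak, 31.7-fold, than the neuron markers, 17.9-fold. The part of progenitors and of the other cell types in the results below was not tested. In such a bulk culture, a peak present in few cells and a weaker peak in all cells cannot be told apart.

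A peak was assigned to a gene when it overlapped the gene extended by 1 kb on each side. H3K27ac peaks were found in 63 of the 70 guidance genes (90.0%), against 70.8% of all protein-coding genes. CTCF peaks were found in 62 of 70 (88.6%), against 60.4%. Peaks of both lists were found in 58 genes (82.9%), against 51.8%. EPHA1 and EPHA8, which encode Eph receptor tyrosine kinases, and NTN5, which encodes a netrin, held no peak of either list, 3 of 70 (4.29%) against 20.5%. A further 4 genes, the semaphorin genes SEMA3F, SEMA3G, SEMA4A and SEMA6B, held CTCF but no H3K27ac. EPHA10, NTN4, PLXNA3, ROBO4 and SEMA4D held H3K27ac but no CTCF. Of all 19970 genes, 14145 held H3K27ac, 12071 held CTCF and 10347 held both. Genes with peaks of only 1 list, of either kind, were thus more common over all genes than among guidance genes.

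Guidance genes were longer than genes at large, with a median of 62.7 kb against 24.2 kb, and long genes hold more peaks. Across the 70 genes, Spearman's rho between length and the number of H3K27ac peaks was 0.60, and across all 19970 genes it was 0.50. Counts are therefore also given within classes of length. Among genes under 50 kb, 77.4% of 31 guidance genes held an H3K27ac peak against 62.8% of all. In this class 83.9% held a CTCF peak against 49.1%. All 17 guidance genes of 50 to 200 kb and all 22 over 200 kb held an H3K27ac peak, against 86.3% and 96.1% of all genes of those lengths. CTCF peaks were found in 82.4% of the guidance genes of 50 to 200 kb, near the 81.8% of all genes of that length. Among those over 200 kb the share was 100%, against 97.3%.

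**Figure D1:**
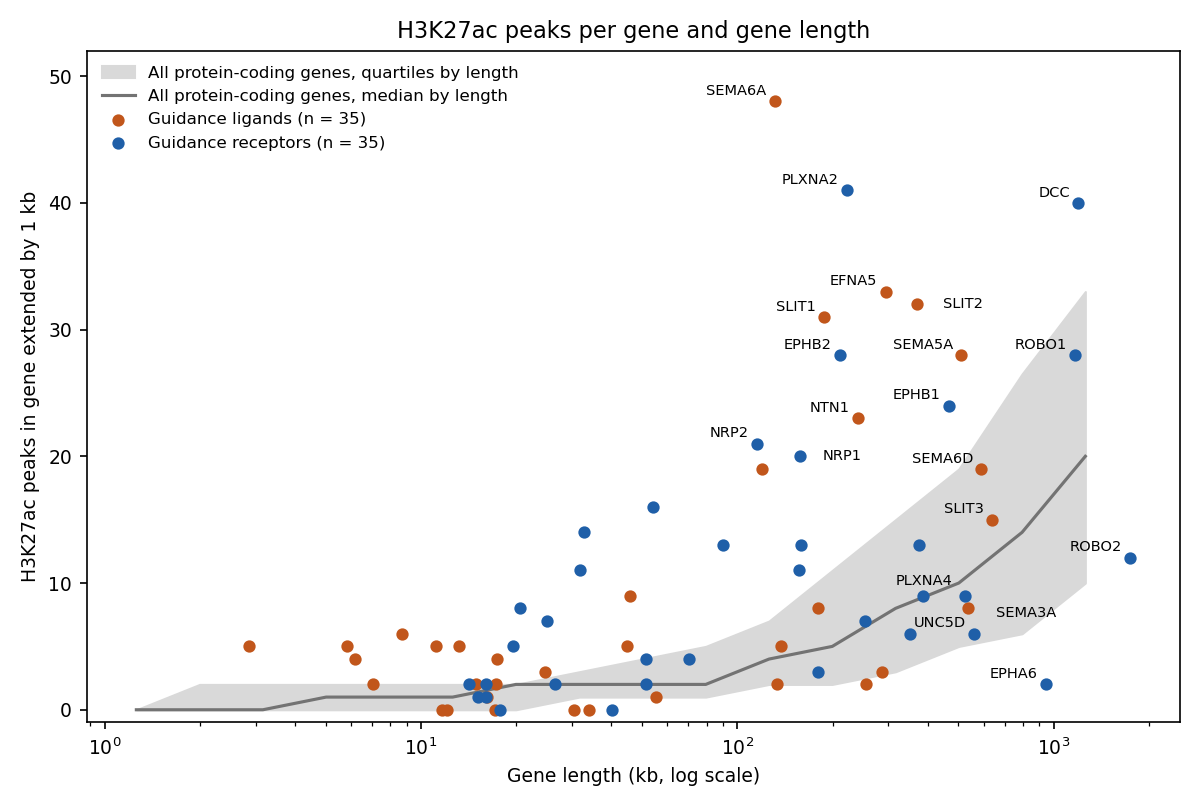
Number of H3K27ac peaks in each guidance gene extended by 1 kb (vertical axis) against gene length in kb (horizontal axis, log scale), with ligand genes in orange and receptor genes in blue. The grey line and band give the median and quartiles over all protein-coding genes of like length. SEMA6A with 48 peaks, PLXNA2 with 41 and DCC with 40 lie highest, and EPHA6 with 2 peaks lies below the band.

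The guidance genes held 720 H3K27ac peaks in all, with a median of 5.5 peaks per gene against 2 over all protein-coding genes. Per 100 kb of gene the densities over all lengths were close, 4.83 against 4.56 peaks. By length class they were 16.4 against 8.53 under 50 kb, 10.7 against 4.39 from 50 to 200 kb and 3.19 against 2.97 over 200 kb. Counts of 20 or more H3K27ac peaks occurred in 13 of the 70 genes (18.6%), against 2.05% of all genes. With only the 50% of peaks with the highest signal, 0 of 70 genes reached 20 peaks, against 0.255% of all genes. The threshold of 20 was kept there, and the median per gene was 3 peaks against 1 over all genes. With all peaks, counts of 20 or more occurred among genes over 200 kb in 9 of 22 (40.9%) against 20.6%, and among genes of 50 to 200 kb in 4 of 17 (23.5%) against 2.41%. The 13 genes included members of every family: SEMA5A and SEMA6A among the semaphorins, PLXNA2, NRP1 and NRP2 among their receptors, EFNA5, EPHB1 and EPHB2 of the ephrin system, SLIT1, SLIT2 and ROBO1, and NTN1 with its receptor DCC. By length class, the median counts in guidance genes were 2, 11 and 14 peaks for genes under 50 kb, of 50 to 200 kb and over 200 kb. The medians over all genes of these classes were 1, 3 and 8. Within each class the guidance genes were the longer ones, with median lengths of 17.1 kb against 13.0 kb, 131 kb against 87.3 kb and 426 kb against 319 kb, so that length was only partly matched.

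SEMA6A, a membrane semaphorin that binds A-type plexins, held 48 H3K27ac peaks over its 131 kb, which covered 19.1% of the gene extended by 1 kb and ranked 39th among all genes by number. PLXNA2, a plexin that acts as a receptor for membrane semaphorins and, with neuropilins, for class 3 semaphorins, held 41 peaks over 222 kb, or 18.3 per 100 kb. DCC held 40 peaks over 1196 kb, or 3.34 per 100 kb. The density in DCC was near the 2.97 peaks per 100 kb of all genes over 200 kb. That in SEMA6A, 36.0 peaks per 100 kb, lay far above the 4.39 of all genes of 50 to 200 kb. EFNA5 (33 peaks), SLIT2 (32) and SLIT1 (31) followed. Neighbouring peaks of 1 acetylated domain count separately here, so a number of peaks also depends on how the authors' peak caller split such domains.

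Most of these peaks were weak. The median fold enrichment over the 720 peaks was 4.34, against 4.97 over the peaks in any protein-coding gene, and 10.0% of them had a q above 0.05 against 6.92% of the whole list. The strongest peak of each gene had a median of 14.0-fold, with quartiles of 8.18 and 21.7, against a median of 15.7-fold over all genes with a peak. A strongest peak of 20-fold or more was found in 18 of 70 guidance genes (25.7%), against 27% of all genes. In these lists the guidance genes thus exceeded other genes in the number of H3K27ac peaks and not in the height of the strongest. Without peaks shared with another gene the order in height turned, with medians of 13.9-fold in guidance genes and 13.1-fold over all genes. In EFNA2, EPHB6, PLXND1, ROBO4, SEMA4D and SEMA4G every peak was under 5-fold, 6 of 63 genes with a peak (9.52%) against 9.04%.

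**Figure D2:**
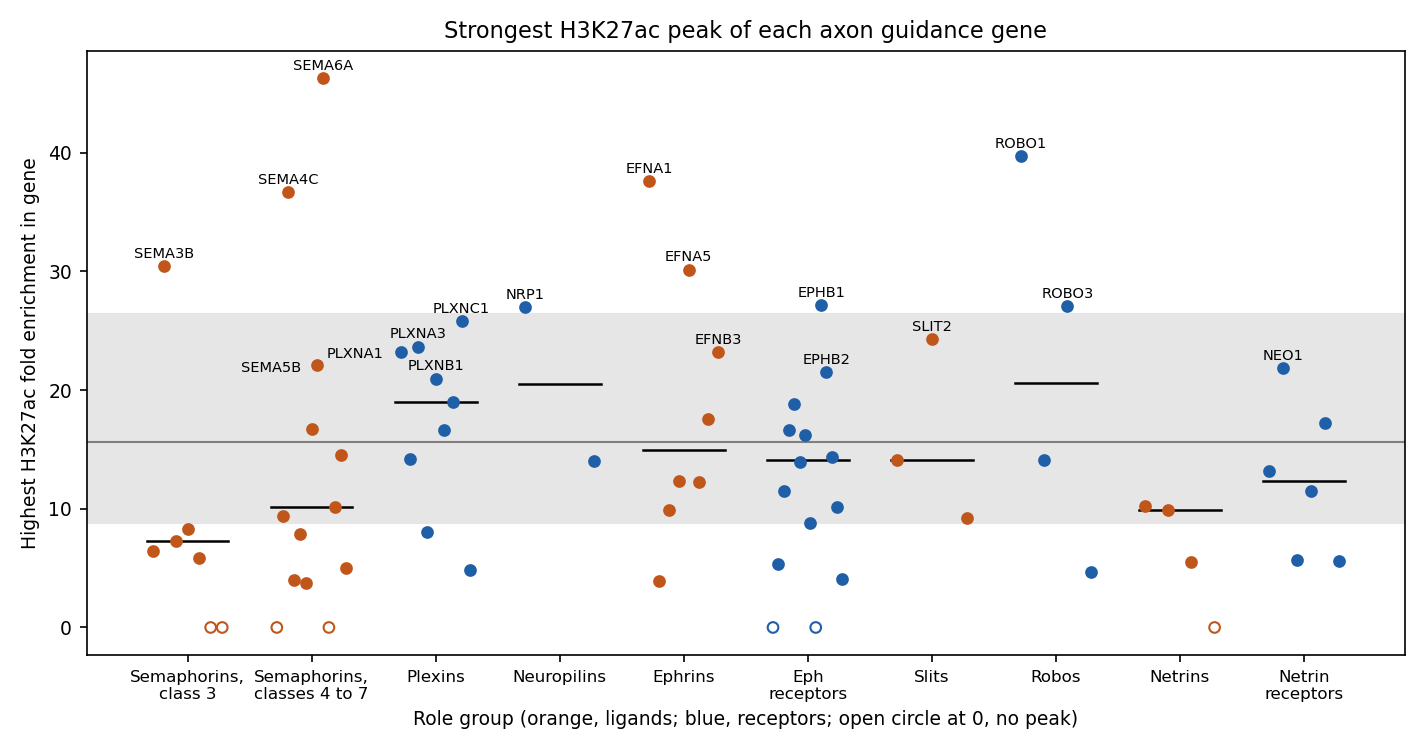
Fold enrichment of the strongest H3K27ac peak of each guidance gene (vertical axis) by role (horizontal axis), with ligand genes in orange and receptor genes in blue, open circles at 0 for genes with no peak, and black bars for the median of the genes with a peak. The grey line and band are the median and quartiles over all protein-coding genes with a peak. SEMA6A at 46.3-fold lies highest, and 4 of the 5 class 3 semaphorin genes with a peak lie under 10-fold.

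The class 3 semaphorins, the secreted ligands of the neuropilin and plexin complex, had weak H3K27ac. Peaks were found in 5 of the 7 genes (71.4%), against 70.8% of all genes and 86.3% of those of 50 to 200 kb. The strongest peaks of SEMA3A (6.47-fold), SEMA3C (7.25), SEMA3D (8.30) and SEMA3E (5.82) all lay under the lower quartile of all genes with a peak, 8.79-fold. SEMA3B reached 30.4-fold, at a peak that spans the 5′ end of its gene interval and also overlaps the neighbouring gene GNAI2. The listed start of SEMA3B lies 12.9 kb inside the gene, so this peak is at -12.6 kb from it. H3K27ac within 1 kb of the listed start was found in 1 of the 6 genes with a known start, SEMA3D, against 63.8% of all genes. CTCF peaks were present in all 7 genes, whose median length was 180 kb. The shares were 60.4% over all genes and 81.8% over those of 50 to 200 kb. The strongest CTCF peaks of SEMA3B (363) and SEMA3D (354) lay at -0.032 and 0.163 kb from the start. SEMA3F and SEMA3G held CTCF peaks at the start (41.4 and 70.0) with no H3K27ac peak anywhere in the gene.

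Among the 13 membrane semaphorins, 11 held H3K27ac (84.6%, against 70.8% of all genes), with a median of 10.1-fold for the strongest peak. The values ran from 3.75-fold in SEMA4G to 46.3-fold in SEMA6A. The SEMA6A peak, at chr5:116571272-116576264, was 4993 bp wide and overlapped a CTCF peak with a value of 145. SEMA4C had a peak of 36.7-fold overlapping the 1 kb after its start, shared with the neighbouring locus LOC124908044. CTCF was found in 12 of the 13 genes (92.3%, against 60.4% of all genes), highest in SEMA5A (309), where the summit lay 1.43 kb after the start. SEMA5A and SEMA5B, which carry thrombospondin repeats, held 28 and 19 H3K27ac peaks, and the strongest peaks, 16.7-fold at 380 kb and 22.1-fold at 50.5 kb from the start, lay far inside the genes.

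All 9 plexin genes held H3K27ac, against 70.8% of all genes. The median of their strongest peak was 19.0-fold, the highest of the role groups with 5 or more genes. PLXNC1 had the strongest peak, 25.8-fold, and PLXND1, the receptor of SEMA3E, the weakest, 4.87-fold. PLXNA1 (23.2-fold), PLXNA3 (23.7) and PLXNB1 (21.0) also exceeded 20-fold. Of the neuropilins, NRP1 reached 26.96-fold, and NRP2 reached 14.0-fold, below the median over all genes with a peak. CTCF was found in 8 of 9 plexin genes (88.9%, against 60.4% of all genes), with the highest value, 314, in PLXNA4. It was also found in both neuropilin genes (237 and 230). PLXNA3 held no CTCF peak.

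All 8 ephrin genes held both marks, against 51.8% of all genes. EFNA1 had the highest H3K27ac value, 37.6-fold, at a peak shared with the gene SLC50A1 whose summit lay 8.20 kb from the start of EFNA1, past the end of this gene of 7.02 kb. EFNA1 held no H3K27ac peak within 1 kb of its start. EFNA5 had 30.2-fold at its own start, and EFNA2 had the lowest value, 3.92-fold. EFNA4, EFNA3 and EFNA1 lie next to each other on chromosome 1, and EFNA4 and EFNA3 are also joined in the readthrough gene EFNA4-EFNA3, so their peaks were shared with it. CTCF peaks in this cluster stood at -0.896 kb from the start of EFNA4 (258), near the far end of EFNA3 (325 and 293), and at -0.852 kb from the start of EFNA1 (48.5). The value before EFNA1 was thus far below those around EFNA4 and EFNA3. EFNB2, a transmembrane ephrin, had the highest CTCF value of the B class, 316, at -0.953 kb from its start.

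Of the 14 Eph receptor genes, 12 held H3K27ac (85.7%, against 70.8% of all genes), 7 of 9 in the A class and all 5 in the B class. Their median length was 104 kb, and over all genes of 50 to 200 kb the share was 86.3%, close to theirs. EPHB1 had the strongest peak, 27.2-fold, and EPHB6, which encodes a receptor with an inactive kinase, the weakest, 4.07-fold. EPHB2 followed EPHB1 with 21.5-fold and EPHA4 came next with 18.8-fold. The strongest CTCF peak was that of EPHA3, with 364 the highest value of all guidance genes, at 7.16 kb from its start. EPHB3 (351) and EPHA4 (321) followed, both within 1 kb of the start. EPHA6 held only 2 H3K27ac peaks over 947 kb, of which the strongest, 16.2-fold, lay at its start.

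The Slit and Robo genes held H3K27ac in 3 of 3 and 4 of 4. The shares were 70.8% over all genes and 96.1% over those longer than 200 kb. ROBO3 and ROBO4 are under 50 kb long, a class with a share of 62.8%. SLIT2 reached 24.3-fold, SLIT1 14.1-fold and SLIT3 9.22-fold. ROBO1 reached 39.7-fold, ROBO3 27.1-fold and ROBO2 14.1-fold, and ROBO4, known from endothelial cells, 4.69-fold. Of the Slit genes SLIT1 had the highest CTCF value, 300.6. SLIT3 held the largest number of CTCF entries of any guidance gene, 16, some of them overlapping, and ROBO1 and ROBO2 held 13 each. ROBO4 held none, although its neighbour ROBO3 held 6 CTCF entries, highest 252 at the start.

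The median of the strongest H3K27ac peak was 9.92-fold over 3 netrin genes and 12.3-fold over 6 receptor genes, with overlapping ranges. NTN1, the ligand of DCC, reached 10.3-fold, NTN3 9.92-fold and NTN4 5.54-fold, the strongest peak of NTN3 being shared with TBC1D24. All 6 receptor genes held H3K27ac, against 70.8% of all genes and 96.1% of those over 200 kb. NEO1, which encodes neogenin, reached 21.9-fold, UNC5C 17.3-fold, DCC 13.1-fold and UNC5B 11.5-fold. UNC5A (5.68-fold) and UNC5D (5.59-fold) were lowest. All 6 receptor genes held CTCF as well, against 60.4% of all genes and 97.3% of those over 200 kb. The values were 240 in DCC, 241 in NEO1, 237 in UNC5B, 213 in UNC5A, 132 in UNC5C and 73.1 in UNC5D. Of the 4 netrin genes 2 held CTCF, NTN1 (137) and NTN3 (114).

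Set side by side, 30 of 35 ligand genes (85.7%) and 33 of 35 receptor genes (94.3%) held H3K27ac, against 70.8% of all genes. Their median lengths were 44.7 kb and 116 kb. The median of the strongest peak was 10.2-fold in ligands and 14.4-fold in receptors. By length class the medians were 11.2-fold for 14 ligands and 15.5-fold for 10 receptors under 50 kb, 7.88-fold for 7 and 12.7-fold for 10 from 50 to 200 kb, and 10.3-fold for 9 and 16.2-fold for 13 over 200 kb. These are medians over few genes of 1 list, and the ranges overlapped in every class.

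A peak was counted at the start when it overlapped the start extended by 1 kb on each side. H3K27ac was found there in 44 of the 60 guidance genes with a known start (73.3%), against 63.8% of 15811 genes. CTCF was found there in 35 (58.3%), against 32.9%, and both in 29 (48.3%), against 28.7%. The excess over the background was thus larger for CTCF than for H3K27ac. For H3K27ac the shares were 67.9% against 59.6% under 50 kb, 69.2% against 72.3% from 50 to 200 kb and 84.2% against 73.6% over 200 kb. The excess of CTCF was present in each class of length: 53.6% against 29.7% under 50 kb, 61.5% against 37.5% from 50 to 200 kb and 63.2% against 46.7% over 200 kb. It was also present in genes with H3K27ac at the start, 29 of 44 (65.9%) against 45%, and in genes without, 6 of 16 (37.5%) against 11.7%. The promoter windows of guidance genes had a median GC content of 66.2%, against 62.7% over all genes, and the part of base composition in the CTCF share was not tested. With starts moved by 20 kb, 11.7% of guidance genes and 7.65% of all genes had an H3K27ac peak within 1 kb.

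**Figure D3:**
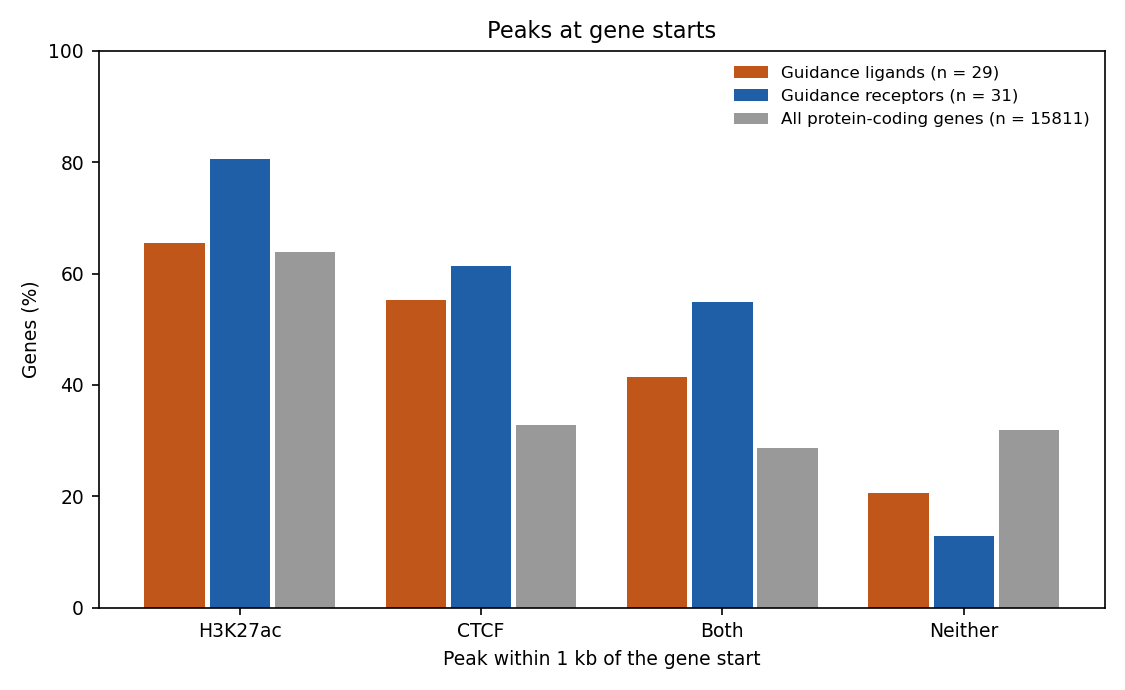
Share of genes in percent (vertical axis) with a peak of H3K27ac, of CTCF, of both or of neither within 1 kb of the gene's start, for 29 guidance ligand genes (orange), 31 receptor genes (blue) and 15811 protein-coding genes (grey). CTCF reaches 55.2% of ligand and 61.3% of receptor genes against 32.9% of all genes.

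By side, H3K27ac stood at the start in 65.5% of 29 ligand genes and 80.6% of 31 receptor genes, against 63.8% of all genes. For CTCF the shares were 55.2% and 61.3%, against 32.9%. The 6 genes with CTCF but no H3K27ac at the listed start were EFNA1, PLXND1, SEMA3B, SEMA3F, SEMA3G and UNC5A, 10.0% of 60 against 4.23%. The 10 genes with neither (16.7% against 32%) were EPHA1, EPHA8, EPHB6, NTN5, ROBO2, SEMA3C, SEMA3E, SEMA4A, SEMA4D and SLIT3. The 16 genes without H3K27ac at the start had promoter windows with a median ratio of observed to expected CpG of 0.537, and the 44 genes with it had 0.729. Over all genes the corresponding ratios were 0.317 and 0.853, a wider difference.

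The table of starts gives a single start per gene, and it lay more than 1 kb inside the 5′ end of the gene in 12 of the 60 guidance genes (20%), against 9.61% of all genes. These were EFNA2, EPHB6, PLXNA4, PLXNB2, PLXNC1, ROBO2, ROBO3, SEMA3B, SEMA3D, SEMA4A, SEMA4B and SEMA4D. In ROBO2 it lay 404 kb inside and in PLXNC1 114 kb inside. A peak described as far from the start in these genes can therefore lie near another start of the gene. The strongest H3K27ac peaks of EPHB6, PLXNB2 and SEMA3B spanned the 5′ end of the gene interval. EFNB3, EPHA10, NRP1, NTN1, NTN3, SEMA3A, SEMA6A, SEMA6B, UNC5B and UNC5D had no start in the table and are left out of values at starts.

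Acetylation at the start itself was low in guidance genes up to 200 kb. The highest H3K27ac value within 1 kb of the start had a median of 10.5-fold in the 44 guidance genes, against 15.7-fold over all genes with a peak there. By length class the medians were 10.1-fold against 15.8-fold under 50 kb and 7.88-fold against 16.5-fold from 50 to 200 kb. Over 200 kb they were close, 12.8-fold against 13.2-fold. This highest value reached 20-fold in 6 of 60 guidance genes (10.0%), EFNA5, NEO1, PLXNA3, PLXNB1, ROBO3 and SEMA4C, against 24.4% of all genes. The strongest H3K27ac peak of the gene lay within 1 kb of the start in 27 of 54 guidance genes (50%), against 74.2% of all genes. By length the shares were 63.6% against 82.6% under 50 kb, 30.8% against 66.4% from 50 to 200 kb, and 47.4% against 45.3% over 200 kb. The strongest peak therefore lay away from the start more often than in other genes up to 200 kb in length, and about as often in longer ones. Of the 54 genes, 10 held H3K27ac peaks but none at the start (18.5%), against 13% of all genes.

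**Figure D4:**
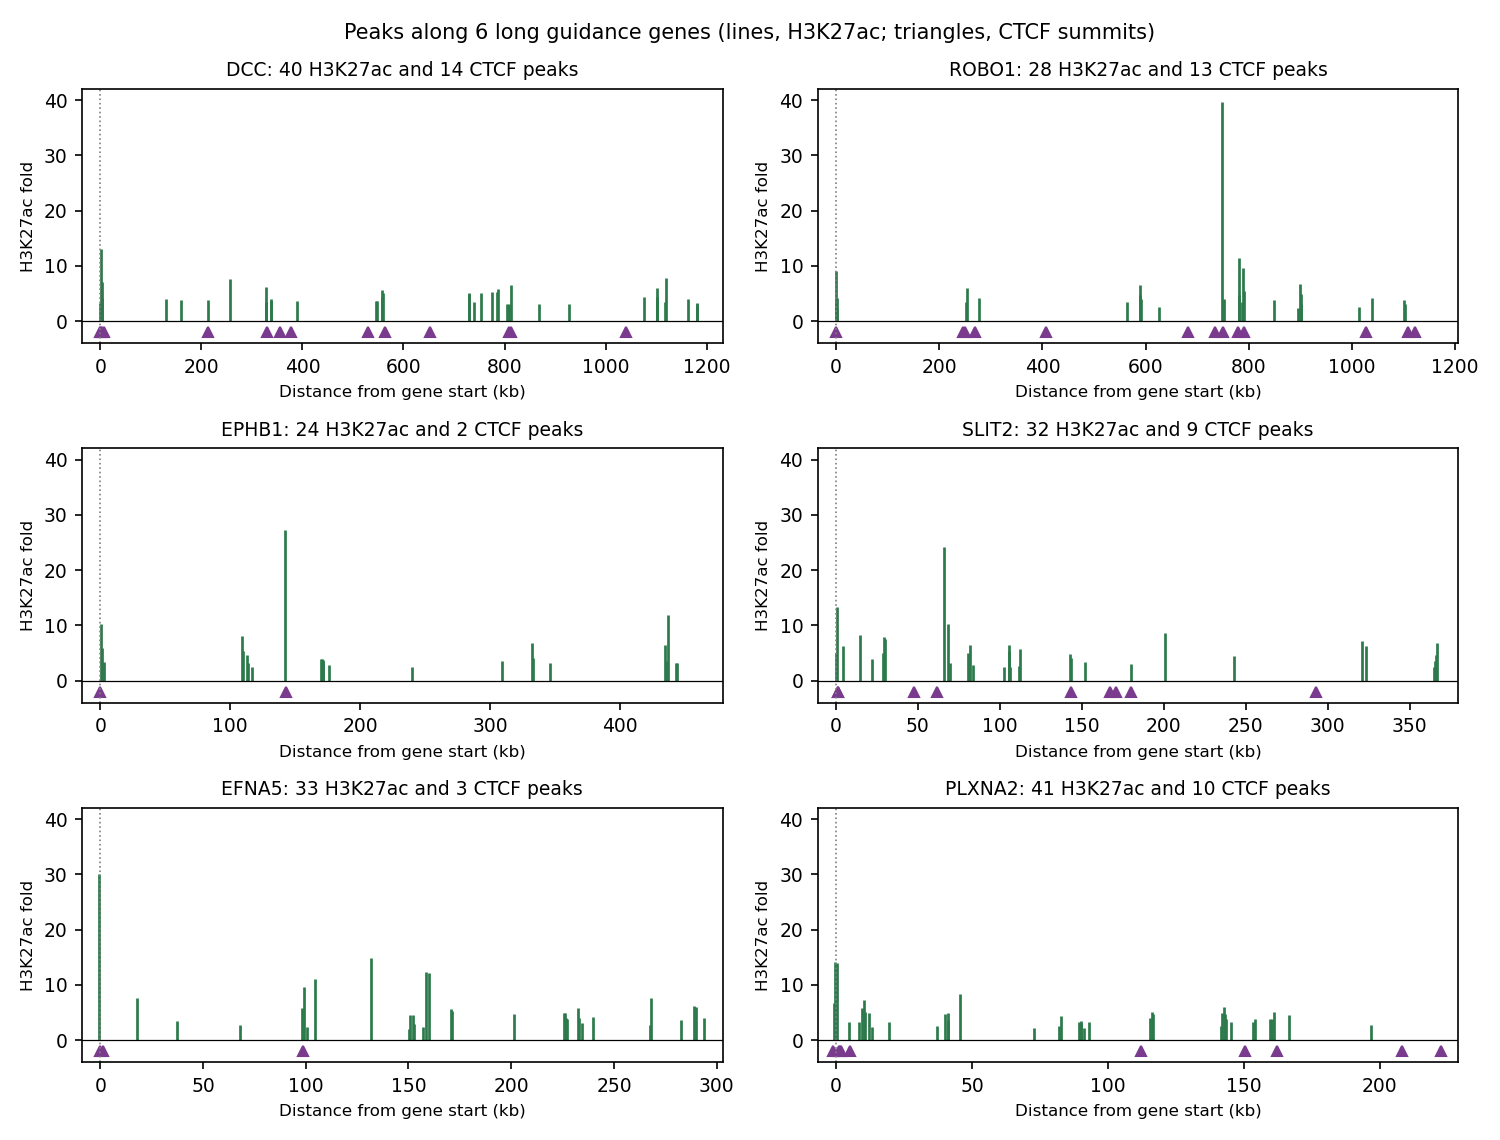
H3K27ac peaks (green lines, height in fold enrichment on the vertical axis) and CTCF summits (purple triangles, drawn under the axis with no height) along 6 guidance genes, by distance from the gene's start in kb (horizontal axis). In ROBO1, EPHB1 and SLIT2 a single peak at 748, 142 and 65.8 kb exceeds the peak at the start, whereas in EFNA5 the peak at the start is the highest.

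ROBO1, a Slit receptor of 1171 kb, had its strongest H3K27ac peak 748 kb from the start, at chr3:79017239-79019803, inside the gene. It reached 39.7-fold, against 9.09-fold for the highest peak at the start, was 2565 bp wide and overlapped a CTCF peak. In EPHB1 the strongest peak, at chr3:134936356-134938903, lay 142 kb from the start and reached 27.2-fold, against 10.3-fold at the start. This peak, too, overlapped a CTCF peak. In SLIT2 a peak at chr4:20316876-20319377, 65.8 kb from the start, reached 24.3-fold against 13.4-fold at the start and overlapped no CTCF peak.

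The strongest peak was at least 3 times as high as the highest at the listed start in 4 of 44 genes (9.09%), against 3.2% of all genes. These were PLXNA1, PLXNB2, PLXNC1 and ROBO1. In PLXNA1 it reached 23.2-fold at 28.1 kb into the gene, against 6.23-fold at the start. In PLXNC1 it reached 25.8-fold at -75.3 kb from the listed start, still within the gene, against 3.78-fold. In PLXNB2 it reached 16.7-fold at -5.63 kb from the listed start, against 5.42-fold. This PLXNB2 peak spans the 5′ end of the gene interval, so it is not a peak away from every start. So 3 of the 4 are plexin genes, and in PLXNB2 and PLXNC1 the listed start lay inside the gene. ROBO2 and SLIT3, with no H3K27ac peak at the listed start, had their strongest peaks at 729 kb (14.1-fold) and 449 kb (9.22-fold).

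Peaks deep inside genes made up a large share of the total. Of 591 peaks in the 60 genes with a known start, 252 (42.6%) had their summit over 100 kb into the gene, against 21.4% over all genes. Restricted to genes over 200 kb the shares were 68.9% and 59.7%. These deep peaks had a median of 4.12-fold, close to the 4.25-fold of such peaks in all genes, while the 72 guidance peaks with a summit within 1 kb of a start had a median of 7.63-fold against 10.4-fold.

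The guidance genes held 273 CTCF peaks, with a median of 3 per gene against 1 over all protein-coding genes. Per 100 kb the density over all lengths was 1.83 against 2.17. Under 50 kb it was 7.67 against 4.35, and from 50 to 200 kb it was 3.295 against 2.098. Over 200 kb the densities were close, 1.257 against 1.282. The lower density over all lengths was thus not present in genes up to 200 kb. Counts of 10 or more CTCF peaks occurred in 9 of 70 genes (12.9%), against 0.986%: SLIT3 (16), DCC (14), ROBO1 and ROBO2 (13 each), NRP2, PLXNA4 and SLIT1 (11 each), and NEO1 and PLXNA2 (10 each). All of them except NRP2 and SLIT1 are over 200 kb long. Among genes over 200 kb the median count was 5.5 in guidance genes, against 5 over all genes of that length. The share with 10 or more was not taken by length. Overlapping entries of the CTCF list were counted separately, as in SLIT3, NRP2 and PLXNA2. These genes thus held fewer separate CTCF sites than the counts given. Across the 70 genes, Spearman's rho between the numbers of H3K27ac and CTCF peaks was 0.60, against 0.53 over all genes. Both numbers go up with gene length, so the relation carries that shared component.

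**Figure D5:**
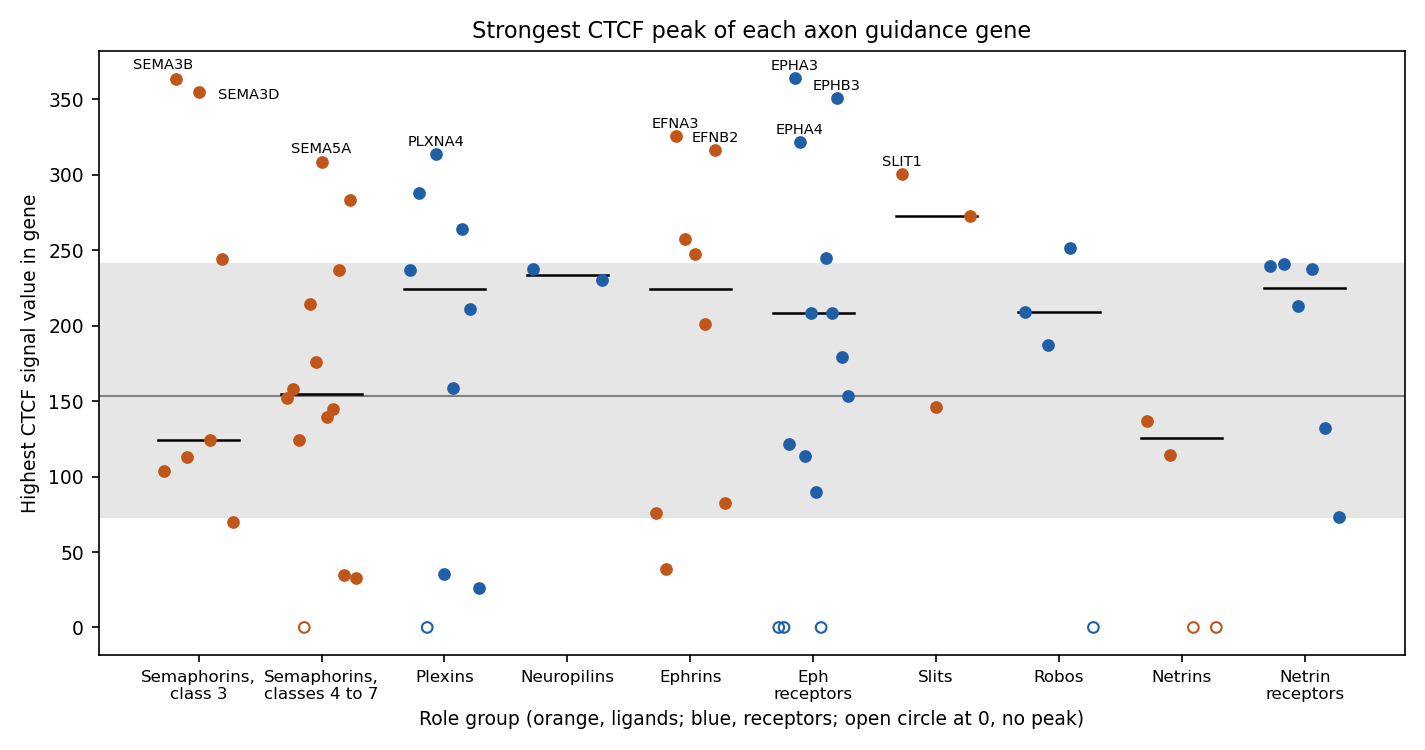
Signal value of the strongest CTCF peak of each guidance gene (vertical axis) by role (horizontal axis), with ligand genes in orange and receptor genes in blue, open circles at 0 for genes with no peak, and black bars for the median of the genes with a peak. The grey line and band are the median and quartiles over all protein-coding genes with a peak. EPHA3 at 364 and SEMA3B at 363 lie highest.

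In the height of the strongest CTCF peak the guidance genes lay above the background, unlike for H3K27ac. The median was 208 over the 62 genes with a peak, against 153 over all genes with a peak. A value of 200 or more was reached in 33 of 70 genes (47.1%), against 22% of all genes. By length class the medians were 158 against 134 under 50 kb, 214 against 162 from 50 to 200 kb and 224 against 202 over 200 kb. A longer gene has more peaks from which the strongest is taken, and the part of this in the difference over all lengths was not tested. By role, the medians ran from 124 in class 3 semaphorins and 125 in netrins to 224 in plexins and ephrins, 225 in netrin receptors and 273 in Slits.

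The median over all 273 CTCF peaks, 82.9, did not exceed the 84.3 of CTCF peaks in any protein-coding gene. Of the 273, 22 (8.06%) had a q above 0.05, against 4.92% of the whole list. The only CTCF peak at the start of NRP2, with a value of 14.9, was one of these. A width of exactly 800 bp was found in 103 of the 273 (37.7%), against 35.7% in any gene, and 3 intervals were listed more than once with different summits. CTCF summits within 1 kb of a guidance gene's start had a median value of 118, against 63.6 at the starts of all genes. By length class, the highest CTCF value within 1 kb of the start had a median of 180 against 84.7 under 50 kb. It was 62.6 against 74.2 from 50 to 200 kb and 91.9 against 73.6 over 200 kb. At the start the guidance genes thus had more frequent CTCF peaks in each class, and higher ones except from 50 to 200 kb.

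CTCF peaks overlapped H3K27ac peaks by at least 1 bp in 97 of 273 cases (35.5%), against 37.1% over peaks in any gene. Without CTCF peaks of width 800 bp the order reversed, 40.0% against 33.4%. From the other side, 97 of 720 H3K27ac peaks (13.5%) overlapped CTCF, against 18.4%. The share differed by position within the gene: 67.7% of the CTCF peaks with a summit within 1 kb of a start overlapped H3K27ac, against 85.7% over all genes, and 14.7% of those over 100 kb into the gene did, against 17.0%. From 1 to 10 kb into the gene the share was 69.2% of 39 peaks, against 38.0% over all genes, so the direction of the difference changed with position. The strongest CTCF peak of the gene overlapped H3K27ac in 29 of 62 genes (46.8%), against 41.8%.

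Peaks shared with another protein-coding gene were less common than elsewhere, 35 of 720 H3K27ac peaks (4.86%) against 8.88%, and 12 of 273 CTCF peaks (4.40%) against 8.01%. The strongest H3K27ac peak was shared in 7 of 63 genes (11.1%), against 30.0% of all genes. These were EFNA1, EFNA3, EFNA4, EPHB4, NTN3, SEMA3B and SEMA4C. A shared peak cannot be assigned to either gene from these lists.

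Other genes of the guidance pathway were taken from lists that hold none of the 70. Of 20 other cues, receptors and co-receptors, with a median length of 75.3 kb, 19 held H3K27ac, all except the chemokine gene CXCL12, against 70.8% of all genes and 86.3% of those of 50 to 200 kb, with a median of 13.4-fold for the strongest peak. The highest values were 62.9-fold in CDON, a co-receptor for hedgehog proteins, and 56.7-fold in RGMA, a ligand of neogenin, which held 43 peaks. LRRC4C, which encodes the receptor of netrin-G1, held 50 peaks, highest 30.3-fold. All 46 genes of intracellular guidance signalling, with a median length of 152 kb, held H3K27ac, and the median of the strongest peak was 20.8-fold, above the 14.0-fold of the guidance ligands and receptors. ABL1, a tyrosine kinase downstream of Robo, reached 58.4-fold and DPYSL2, a cytoplasmic mediator of semaphorin signals, 41.9-fold. CTCF was found in 18 of the 20 genes (90.0%) and 36 of the 46 (78.3%), against 60.4% of all genes and 81.8% of those of 50 to 200 kb.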

How the data were processed

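ChIP-seq of CTCF and H3K27ac was done on fixed, sonicated chromatin of the neurons, per the labels' protocols. Adapters were trimmed with cutadapt 1.16 and the build was hg38, per the submitters' processing notes. The aligner and peak caller are not given in the sources used here. The authors deposited 1 peak list per antibody covering both replicates. The CTCF values are a deposited signal of unstated scale, and the H3K27ac values were read as a deposited ratio, the fold enrichment at the summit. The −log10 of each q-value was also deposited by the authors, as was a score that was not used. No depth per library and no column of single samples was used (0 such columns were set aside). Inputs, signal tracks and single replicates were not analysed here.

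Gene intervals and starts came from RefSeq (GRCh38.p14). Python 3.11.15 with pandas 2.3.3 and numpy 2.4.6 counted peaks overlapping each gene extended by 1 kb, or its start by 1 kb, by at least 1 bp. A start was matched for 60 of 70 guidance genes and 15811 of 19970 genes. The overlap code was tested on simulated intervals. No statistical test was possible without values per library, so counts and medians stand beside the same over all protein-coding genes. The guidance genes and all lists were chosen with earlier results of these data known. Named with values were, in each role group, the genes with the highest and lowest H3K27ac and the highest CTCF value, every gene with no peak in a list, and the 5 genes with the most peaks; others, and the thresholds of 20 peaks, 10 peaks, 20-fold and 200, were chosen after their values were seen. The rule for printed promoters took those with the highest CTCF value at the start. The 6 shown were instead chosen after their values were seen, for motif letters in the window, and not all windows with such letters are shown. Alternatives covered the extension of genes and starts, the strength, width and sharing of peaks, and the overlap.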

Additional observations from a re-analysis of the deposited data

How the results depend on the processing

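Of 48 alternatives over 11 results, 41 moved a count by at most 1.5 times, or left a median or share within its 95% binomial interval, and 45 left the guidance genes on the same side of the value over all genes. Alternatives for the place of the strongest peak, for counts of 20 or more peaks and for the 5′ end of the gene as start were chosen after seeing the data. With only the 50% of peaks with the highest signal, the median number of peaks per gene was 3 for H3K27ac and 1 for CTCF, CTCF stood at the start of 19 of 60 genes (31.7% against 15.1% of all genes), and no gene, 0 of 70, had 20 or more H3K27ac peaks (against 0.255% of all genes). The threshold of 20 was kept with fewer peaks, which lowers the count in all genes too. This setting therefore cannot decide whether the excess in number rests on weak peaks. The median of 3 H3K27ac peaks per gene stood against 1 over all genes. Within 0.5 kb of the start CTCF was found in 24 of 60 genes, against 35 within 1 kb. The share of CTCF peaks overlapping H3K27ac was 25.2% with the stronger peaks of each list, 23.8% where the CTCF summit had to lie inside the H3K27ac peak, and 26.01% where H3K27ac had to span 50% or more of the CTCF peak's width. Without CTCF peaks of width 800 bp it was 40.0%, above the 33.4% over all genes, the reverse of the order with all peaks. Without peaks shared with another gene, the median of the strongest H3K27ac peak was 13.9-fold against 13.1-fold over all genes, so that the guidance genes no longer lay below. For these changes the cause was not tested. No paired analysis was possible because each list combines its replicates, and leaving out a replicate could not be run for the same reason. With no counts per library, depth and its effect on weak peaks are unknown.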
